A study of Mus musculus with 59 samples.

Results

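Whole uteri of control mice taken at D3.5 of pregnancy were compared with whole uteri of control mice taken at D0.5, the day the vaginal plug was found. The members were chosen by their labels: the 5 control uteri of D3.5 and the 6 control uteri of D0.5, 11 of the 59 RNA-seq samples of the series. Each library came from 1 mouse. The control females were Esr1f/-, so every mouse of both days carried 1 floxed and 1 null allele of Esr1, the gene of oestrogen receptor alpha. They were virgin, 2 to 6 months old, and their mates were wild type studs, Esr1f/f or C57BL/6. Same-genotype littermates were spread over the days at random, and dissection fell at 11 to 12 h on each day. A piece of undigested uterine horn was frozen whole, so it held luminal and glandular epithelium, stroma, muscle, vessels and blood. Further libraries were used where a comparison needed them. These were 3 D3.5 and 4 D0.5 control pieces digested with dispase, 4 D3.5 and 9 D0.5 samples of control luminal epithelium scraped off after that digestion, and 5 D3.5 and 4 D0.5 whole uteri of epiERα-/- females, labelled knockout, in which the epithelium is the target of the deletion. The sources used here do not name the Cre driver of that deletion.

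In the mouse, oestrogen made before ovulation governs the uterus at mating: luminal epithelial cells secrete fluid, mucins and antibacterial proteins, and leukocytes enter the lumen after semen arrives. Progesterone from the new corpora lutea then takes over, and the uterus becomes receptive to the blastocyst shortly before implantation. In that phase the epithelium leaves the cell cycle, Indian hedgehog made by the epithelium acts on the stroma through PTCH1, SMO and the GLI factors, and the stroma proliferates.

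Sequencing depth lay between 11.3 M and 53.1 M estimated counts per library, with a median of 18.8 M, and mitochondrial transcripts took 2.45% to 4.82%. Levels are given as CPM, counts scaled to the normalised library size, which are not corrected for transcript length and are therefore compared between days and not between genes. After ±, a level has its SD over the 5 D3.5 or 6 D0.5 mice and a log2 fold change its SE. The first principal component, 60.3% of the variance over 14550 genes, separated the days. The second, 17.3%, set D3.5 mouse 14 and D0.5 mice 8 and 9 apart (-0.54, -0.43 and -0.41), with D3.5 mouse 16 between them and the rest (-0.10). Mitochondrial shares were highest in mice 14, 8, 9 and 16, at 4.82%, 3.79%, 3.76% and 3.79%. The third component, 5.76%, set D0.5 mouse 1 apart. Markers of the tissues of the uterine wall were present on both days. Acta2 and Myh11 of smooth muscle averaged 2379 ± 505 CPM at D3.5 and 1912 ± 678 CPM at D0.5, and 2295 ± 492 CPM at D3.5 and 2039.99 ± 689 CPM at D0.5. Pdgfra of stroma averaged 449 ± 103 CPM at D3.5 and 375 ± 111 CPM at D0.5, and Epcam of epithelium 85.4 ± 34.7 CPM at D3.5 and 622 ± 222 CPM at D0.5. Of 12 sperm and testis markers, Odf2, which many cells use, reached 74.7 CPM, and each of the others stayed at or below 1.22 CPM in every library. Tnp1 and Akap4 had 0 counts in all 11 libraries, Odf1 had 0 counts over the D3.5 uteri and 23 over the D0.5 uteri, Smcp 0 and 22, Ldhc 16 and 48, and Prm1 24 and 24. The D0.5 counts of Odf1 all came from mouse 1, at 1.22 CPM, and those of Smcp nearly all, at 1.12 CPM.

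The days differed over a large part of the transcriptome. Of 16232 genes tested with edgeR's quasi-likelihood test, 5549 (34.2%) were called at a Benjamini-Hochberg adjusted p under 0.05. At D3.5, 2632 genes (16.2%) were higher and 2917 (18.0%) were lower. With limma on log2(TPM + 1) over 13934 genes, where the median log2 change was 0.17, the split was 3010 higher and 1967 lower. This setting, called the TPM scale below, changed the test and the genes tested as well as the scaling. At least 2-fold differences numbered 1150 higher and 1805 lower among the called genes. In 3391 genes (20.9%) the D3.5 and D0.5 values did not overlap, with D3.5 above D0.5 in 9.78% and below it in 11.1%, and 3301 of these were called. The counts for gene lists below are to be read against these shares, and against a median log2 fold change of 0.02 over all genes tested.

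Oestrogen receptor alpha itself did not pass the test between days, whereas the progesterone receptor rose. Esr1 had 172, 191, 195, 135 and 172 CPM in the D3.5 uteri, against a lowest of 131, a median of 192 and a highest of 299 CPM in the D0.5 uteri. The groups overlapped (log2 fold change -0.16 ± 0.19, adjusted p = 0.563), and the difference changed sign to 0.04 on the TPM scale. Pgr, the progesterone receptor, had 211, 190.1, 167, 76.9 and 162 CPM in the D3.5 uteri, against a lowest of 28.9, a median of 60.2 and a highest of 92.4 CPM in the D0.5 uteri. The 4 highest D3.5 uteri lay above every D0.5 uterus, and only mouse 14 lay inside the D0.5 range (log2 fold change 1.48 ± 0.31, adjusted p = 8.12e-04). Of the 9 steroid receptors and membrane partners tested, Pgr and Pgrmc2 (log2 fold change 0.47 ± 0.16, adjusted p = 0.0254) rose and the other 7 did not pass. The call of Pgrmc2 was lost without D0.5 mouse 2 or 5 or D3.5 mouse 14 or 16.

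Genes that oestrogen is known to induce in uterine epithelium fell almost throughout. Of 23 tested, 21 fell, 20 of them without overlap between days, and the median log2 fold change was -8.50. In bulk tissue, the parts that fewer epithelial cells and less RNA per cell have in a fall cannot be told apart. Luminal epithelium markers had a median of -2.21, and in isolated luminal epithelium Clca1 averaged 6.30 ± 2.96 CPM at D3.5 and 12835 ± 4831 CPM at D0.5 and Ltf 71.5 ± 39.98 CPM at D3.5 and 18993 ± 6146 CPM at D0.5. Clca1, a secreted regulator of chloride channels and mucus, had 0.516, 0.345, 0.946, 0.282 and 0.446 CPM in the D3.5 uteri, against a lowest of 3012, a median of 3562 and a highest of 9477 CPM in the D0.5 uteri. Each D3.5 value was below 1 CPM, and the days did not overlap (log2 fold change -13.12 ± 0.89, adjusted p = 1.78e-09). Counts of Clca family members can be exchanged by shared sequence, so a single member's share is uncertain. C3, the central complement protein, had 795, 408, 759.9, 695 and 1161 CPM in the D3.5 uteri, against a lowest of 8385, a median of 12662 and a highest of 17822 CPM in the D0.5 uteri. The highest D3.5 uterus lay far below the lowest D0.5 uterus (log2 fold change -4.01 ± 0.28, adjusted p = 2.83e-09). Ltf, which encodes the iron-binding lactotransferrin and is a classic oestrogen-induced uterine gene, had 8.81, 6.82, 7.35, 12.4 and 23.7 CPM in the D3.5 uteri, against a lowest of 2839, a median of 8073 and a highest of 12992 CPM in the D0.5 uteri, again with no overlap (log2 fold change -9.36 ± 0.96, adjusted p = 2.58e-07). Muc1, the cell-surface mucin that covers the luminal epithelium, averaged 26.5 ± 8.62 CPM at D3.5 and 762 ± 208 CPM at D0.5 (log2 fold change -4.84 ± 0.28, adjusted p = 2.50e-10). Sprr2 genes encode small proline-rich proteins of epithelial surfaces and share much sequence, which makes each single member uncertain. Sprr2d had 0 counts in every D3.5 uterus and 0 ± 0 CPM at D3.5 and 447 ± 404 CPM at D0.5, at least 16735-fold lower at D3.5 when 3 counts over the group are taken as the floor. Sprr2f averaged 5.64 ± 3.40 CPM at D3.5 and 2052 ± 813 CPM at D0.5 (log2 fold change -8.50 ± 0.62, adjusted p = 4.00e-09). Cftr, an epithelial chloride channel, averaged 1.18 ± 0.435 CPM at D3.5 and 59.8 ± 32.4 CPM at D0.5 (log2 fold change -5.67 ± 0.45, adjusted p = 1.19e-08). The members that did not pass were Greb1, with 25.9 ± 5.66 CPM at D3.5 and 20.7 ± 10.2 CPM at D0.5, and Slpi, with 37.9 ± 18.0 CPM at D3.5 and 47.3 ± 27.7 CPM at D0.5.

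Beside these stood the other genes with the lowest fold changes. Il36a, an interleukin 1 family cytokine, had 0 counts in all D3.5 uteri and 0 ± 0 CPM at D3.5 and 83.1 ± 66.6 CPM at D0.5, at least 3113-fold lower. The serine protease gene Prss32 and the whey acidic protein family gene Wfdc16 were also at 0 counts at D3.5, at least 1011-fold and 772-fold lower. Trim40, a ubiquitin ligase of epithelia, was at least 427-fold lower and Sprr2e at least 562-fold. Prap1, a secreted protein known as proline-rich acidic protein, had 0.344, 0.0863, 0.368, 0.678 and 0.789 CPM in the D3.5 uteri, against a lowest of 918, a median of 2574 and a highest of 5693 CPM in the D0.5 uteri (log2 fold change -12.61 ± 0.96, adjusted p = 6.65e-09). Chil1, a chitinase-like secreted protein, averaged 0.155 ± 0.164 CPM at D3.5 and 676 ± 522 CPM at D0.5 (log2 fold change -12.07 ± 1.09, adjusted p = 5.10e-08), and Sprr2b 0.0966 ± 0.0734 CPM at D3.5 and 224 ± 187 CPM at D0.5 (log2 fold change -10.99 ± 0.89, adjusted p = 1.39e-08). Hsd17b2, which converts oestradiol to the weaker oestrone, had 1 count over the D3.5 uteri together and 25.8 to 50.2 CPM in the D0.5 uteri. Pla2g2e, a secreted phospholipase, likewise had 1 count at D3.5 and averaged 0.00860 ± 0.0192 CPM at D3.5 and 89.1 ± 92.6 CPM at D0.5. None of these 12 genes overlapped between days, which the rule that named them required.

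**Figure D1:**
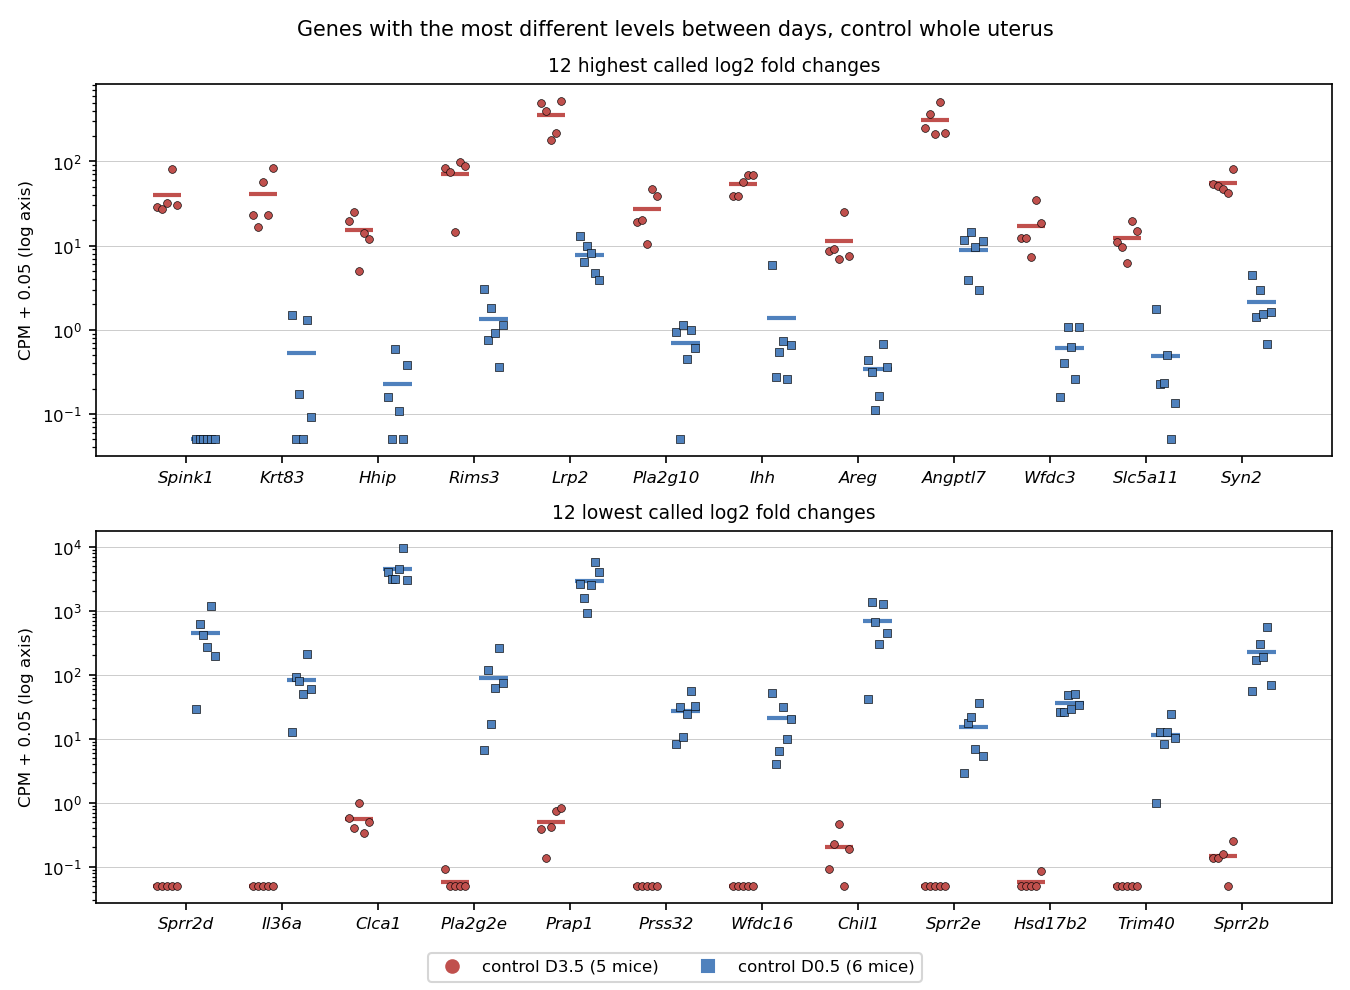
CPM plus 0.05 on a log axis for the 12 top and 12 bottom log2 fold changes named by rule, in each of 5 D3.5 (left, circles) and 6 D0.5 (right, squares) control uteri, with a line at each group mean. Points at the bottom edge are libraries with 0 counts, and fitted changes of genes with 0 counts in a group depend on the prior count of the fit.

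The genes that rose the most included progesterone targets of the epithelium and the hedgehog pathway. Of 15 genes listed as progesterone-responsive in epithelium, 11 rose and 1 fell, with a median of 2.02 and 9 without overlap. Ihh, the hedgehog ligand of the luminal epithelium, had 38.6, 39.3, 56.3, 68.1 and 69.4 CPM in the D3.5 uteri, against a lowest of 0.207, a median of 0.546 and a highest of 5.88 CPM in the D0.5 uteri. The lowest D3.5 value lay well above the highest D0.5 value, that of mouse 1, while the other 5 D0.5 uteri stayed below 1 CPM (log2 fold change 5.32 ± 0.69, adjusted p = 4.88e-06). Areg, an EGF family ligand induced by progesterone in luminal epithelium, had 8.47, 9.06, 6.93, 24.8 and 7.51 CPM in the D3.5 uteri, against a lowest of 0.0609, a median of 0.289 and a highest of 0.622 CPM in the D0.5 uteri. Mouse 14 was the highest and the days did not overlap (log2 fold change 5.31 ± 0.53, adjusted p = 1.74e-07). Lrp2, the endocytic receptor megalin, had 489, 402, 178, 215 and 517 CPM in the D3.5 uteri, against a lowest of 3.90, a median of 7.24 and a highest of 13.1 CPM in the D0.5 uteri, with all D3.5 uteri above all D0.5 uteri (log2 fold change 5.56 ± 0.44, adjusted p = 1.09e-08). Npl, an enzyme that splits sialic acid, averaged 95.2 ± 48.4 CPM at D3.5 and 5.60 ± 2.62 CPM at D0.5 (log2 fold change 4.10 ± 0.44, adjusted p = 4.28e-07). Il13ra2, a decoy receptor for interleukin 13, had a log2 fold change of 3.25 ± 0.71, Calca, the calcitonin gene, 3.44 ± 0.61, and Gata2, a transcription factor upstream of Pgr in this tissue, 0.93 ± 0.15. Ltc4s, leukotriene C4 synthase, was the member that fell (log2 fold change -2.28 ± 0.53, adjusted p = 0.00215). Acod1, the itaconate-forming enzyme, averaged 48.1 ± 15.5 CPM at D3.5 and 57.9 ± 33.0 CPM at D0.5 and did not pass.

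In the hedgehog list, which includes Ihh, 9 of 12 genes rose, 1 fell, 8 did not overlap and the median was 1.01. Ptch1, the receptor and itself a target of the pathway, averaged 189 ± 69.5 CPM at D3.5 and 47.8 ± 16.3 CPM at D0.5 (log2 fold change 1.99 ± 0.34, adjusted p = 9.95e-05). Smo, the signal transducer, had a log2 fold change of 0.60 ± 0.11. Gli1, the transcription factor whose own transcription reads out the pathway, had 230.03, 221, 235, 252 and 239 CPM in the D3.5 uteri, against a lowest of 3.67, a median of 14.6 and a highest of 25.4 CPM in the D0.5 uteri. The D3.5 uteri were close together and all lay above every D0.5 uterus (log2 fold change 3.94 ± 0.33, adjusted p = 2.12e-08). Hhip, a hedgehog-binding inhibitor that the pathway induces, had 19.7, 25.0, 4.94, 14.2 and 12.0 CPM in the D3.5 uteri, against a lowest of 0, a median of 0.0835 and a highest of 0.548 CPM in the D0.5 uteri (log2 fold change 6.25 ± 0.77, adjusted p = 2.61e-06). The stromal factors Nr2f2 (COUP-TFII) and Hand2 had log2 fold changes of 0.98 ± 0.18 and 1.02 ± 0.29. Gli2, with 45.6 ± 11.0 CPM at D3.5 and 37.6 ± 10.1 CPM at D0.5, and Bmp2, with 9.32 ± 1.63 CPM at D3.5 and 7.47 ± 2.55 CPM at D0.5, did not pass, and Bmp8a fell (log2 fold change -2.71 ± 0.79, adjusted p = 0.0111). No GLI site (GACCACCCA, either strand) was found in the promoter windows of the 7 risen genes that had one. This motif was added to the search after the values were seen. It is held by 0.289% of genes, so no match was likely in 7 windows. Neither an oestrogen response element (GGTCA and TGACC with 3 bases between, 0.074% of genes) nor a progesterone and glucocorticoid response element (GNACA and TGTNC with 3 bases between, 0.537%) was found in the 20 fallen oestrogen-list genes or the 10 risen progesterone-list genes with a window. The windows ran from 250 bases before to 50 bases after the RefSeq start, and the shares are of 27025 genes.

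Other genes among the 12 highest changes have varied roles. Spink1, a trypsin inhibitor secreted by uterine glands, had 28.4, 26.8, 32.2, 80.2 and 30.0 CPM in the D3.5 uteri and 0 counts in all D0.5 uteri, at least 1743-fold higher. Mouse 14 was again the highest. Krt83, a hair-type keratin, averaged 40.7 ± 28.8 CPM at D3.5 and 0.473 ± 0.673 CPM at D0.5 (log2 fold change 6.68 ± 1.50, adjusted p = 0.00154), and the synaptic vesicle genes Rims3 and Syn2 had log2 fold changes of 5.77 ± 0.50 and 4.73 ± 1.00. Pla2g10, a secreted phospholipase, averaged 26.9 ± 15.1 CPM at D3.5 and 0.645 ± 0.406 CPM at D0.5 (log2 fold change 5.44 ± 0.60, adjusted p = 6.51e-07). Angptl7, a secreted angiopoietin-like protein, had 250.02, 362, 214, 503 and 216 CPM in the D3.5 uteri, against a lowest of 2.90, a median of 10.4 and a highest of 14.3 CPM in the D0.5 uteri, with no overlap (log2 fold change 5.11 ± 0.46, adjusted p = 4.64e-08). Wfdc3 and Slc5a11, an inositol transporter, changed by 4.86 ± 0.97 and 4.81 ± 0.80.

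Transcription factors of receptivity mostly rose. Of 20 tested, 11 rose and 4 fell, with a median of 0.85. Hoxa11, needed in stroma for implantation, had 260.4, 289.7, 263, 355 and 307 CPM in the D3.5 uteri, against a lowest of 54.0, a median of 61.7 and a highest of 111 CPM in the D0.5 uteri. All D3.5 uteri exceeded all D0.5 uteri (log2 fold change 1.96 ± 0.21, adjusted p = 4.56e-07). Hoxa10 changed by 1.50 ± 0.24 and Hoxd10 by 0.85 ± 0.13. Fkbp5, a steroid-induced chaperone partner of receptors, averaged 64.1 ± 9.55 CPM at D3.5 and 22.0 ± 8.72 CPM at D0.5 (log2 fold change 1.54 ± 0.22, adjusted p = 1.57e-05), and Sox17, an epithelial and endothelial factor, changed by 1.16 ± 0.25. Klf5, Msx2 and Klf4 fell (-2.52 ± 0.20, -1.77 ± 0.39 and -0.96 ± 0.19), as did Stat3, the transducer of LIF (-0.61 ± 0.17). Msx1, with 188 ± 90.4 CPM at D3.5 and 102 ± 45.2 CPM at D0.5, did not pass. Foxa2, the gland factor, averaged 11.4 ± 5.39 CPM at D3.5 and 8.90 ± 4.29 CPM at D0.5 without passing.

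Ligands and receptors of growth factor families moved in different directions. Igf1, the insulin-like growth factor made by stroma, had 700.1, 817, 724, 677 and 596 CPM in the D3.5 uteri, against a lowest of 40.5, a median of 52.7 and a highest of 76.7 CPM in the D0.5 uteri. The days were separated by a wide gap (log2 fold change 3.67 ± 0.19, adjusted p = 5.03e-11). Of 10 IGF genes 3 rose and 2 fell: the binding protein Igfbp4 and Igf2 rose (1.06 ± 0.23 and 1.61 ± 0.23), whereas the receptor Igf1r and Igfbp2 fell (-0.89 ± 0.24 and -3.78 ± 0.72), Igf1r not on the TPM scale. Of 11 EGF family genes, Areg rose and 7 fell. The fallen ones included the ligands Hbegf (-2.91 ± 0.41) and Nrg1 (-3.30 ± 0.47) and the receptor Erbb3 (-2.56 ± 0.36). Lif, the cytokine whose surge opens implantation, averaged 32.7 ± 14.9 CPM at D3.5 and 106 ± 51.0 CPM at D0.5 and did not pass (log2 fold change -1.69 ± 0.76, adjusted p = 0.0952). In its family 2 of 12 genes rose and 6 fell. Osmr and Il6ra fell (-1.53 ± 0.30 and -1.39 ± 0.29), Jak1 rose (0.59 ± 0.15), and on the TPM scale 2 of the family fell, Il6ra not among them. Of 11 FGF genes 3 rose and 1 fell. Fgf1 rose (2.04 ± 0.24) and Fgf9 fell (-1.11 ± 0.25).

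Of 29 Wnt pathway genes, 9 rose and 6 fell. The ligands Wnt7b and Wnt4 fell: Wnt7b averaged 2.51 ± 1.45 CPM at D3.5 and 74.7 ± 21.0 CPM at D0.5 (log2 fold change -4.90 ± 0.47, adjusted p = 1.14e-07), and Wnt4 10.9 ± 3.06 CPM at D3.5 and 90.9 ± 48.5 CPM at D0.5 (log2 fold change -3.05 ± 0.33, adjusted p = 4.89e-07). Wnt11 rose (log2 fold change 3.47 ± 0.63, adjusted p = 2.10e-04), as did the transcription factor Lef1 (log2 fold change 2.78 ± 0.25, adjusted p = 5.40e-08), the secreted antagonist Sfrp1 (1.47 ± 0.21) and Lgr5, an R-spondin receptor (2.37 ± 0.55). Axin2, a common readout of the pathway, averaged 41.0 ± 8.32 CPM at D3.5 and 49.96 ± 13.4 CPM at D0.5 and did not pass. Of 22 BMP, activin and TGFβ genes, 10 rose and 5 fell. The activin subunit Inhbb had 13.6, 11.3, 24.9, 11.4 and 11.0 CPM in the D3.5 uteri, against a lowest of 147, a median of 229 and a highest of 271 CPM in the D0.5 uteri, without overlap (log2 fold change -3.96 ± 0.26, adjusted p = 1.10e-09). Inhba fell as well (-2.22 ± 0.38), whereas follistatin (Fst), which binds activins, rose (log2 fold change 3.27 ± 0.45, adjusted p = 1.01e-05). The BMP antagonist gene Nog rose (log2 fold change 3.17 ± 0.41, adjusted p = 4.75e-06). Bmp7 and the target gene Id3 rose (1.57 ± 0.13 and 1.98 ± 0.26).

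Genes of S phase and mitosis rose at D3.5, and no tested member of either list fell. In the S phase list 22 of 27 genes rose, 21 without overlap, with a median of 1.03. In the mitosis list 22 of 27 rose, 14 without overlap, with a median of 1.41. Mcm5, a subunit of the replicative helicase, had 43.5, 42.6, 35.2, 46.7 and 45.9 CPM in the D3.5 uteri, against a lowest of 13.7, a median of 16.1 and a highest of 17.5 CPM in the D0.5 uteri. The days were far apart relative to their spread (log2 fold change 1.44 ± 0.21, adjusted p = 1.83e-05). Ccne2, a cyclin of S phase entry, changed by 1.51 ± 0.22, and Prim1, a primase subunit, by 1.42 ± 0.22. Top2a, the topoisomerase of dividing cells, had 117, 126, 95.3, 88.0 and 111 CPM in the D3.5 uteri, against a lowest of 11.3, a median of 26.8 and a highest of 43.5 CPM in the D0.5 uteri, with no overlap (log2 fold change 2.04 ± 0.45, adjusted p = 0.00123). Mki67, the proliferation marker, averaged 103 ± 31.3 CPM at D3.5 and 37.9 ± 16.3 CPM at D0.5 (log2 fold change 1.45 ± 0.41, adjusted p = 0.00873). Ttk, a kinase of the spindle checkpoint, averaged 6.49 ± 1.20 CPM at D3.5 and 1.65 ± 0.713 CPM at D0.5 (log2 fold change 2.00 ± 0.41, adjusted p = 6.86e-04), and the cyclin Ccna2 changed by 1.80 ± 0.38. Among 15 cyclins, inhibitors and Myc genes 4 rose and 6 fell. Mycn had 1.98, 1.12, 2.68, 0.960 and 4.90 CPM in the D3.5 uteri, against a lowest of 66.6, a median of 107 and a highest of 200.2 CPM in the D0.5 uteri (log2 fold change -5.63 ± 0.40, adjusted p = 3.44e-09), and Myc averaged 118 ± 22.0 CPM at D3.5 and 34.2 ± 6.62 CPM at D0.5 (log2 fold change 1.79 ± 0.26, adjusted p = 2.22e-05), so the paralogs moved in opposite directions. The cyclin-dependent kinase inhibitors Cdkn1a and Cdkn2b fell (-2.30 ± 0.30 and -3.96 ± 0.49) and Cdkn1c rose (1.16 ± 0.27). On the TPM scale 3 of this list fell.

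Promoters of mitosis genes are known to hold a CCAAT box and a TTTGAA cell cycle element near the start. Of the 17 risen mitosis genes with a RefSeq promoter window, 11 held TTTGAA on either strand, against 20.2% of all 27025 genes, and 14 held CCAAT, against 41.1%. Of the 17 risen S phase genes with a window, 3 held TTTGAA and 13 held CCAAT. The windows of Ttk and Top2a are shown because they carry both motifs, in capitals on either strand. They were taken from RefSeq on GRCm38.p6 at chr9:83834439-83834738 (plus strand) and chr11:99024140-99024439 (minus strand), a different build from the GRCm39 of the deposited values.
Ttk: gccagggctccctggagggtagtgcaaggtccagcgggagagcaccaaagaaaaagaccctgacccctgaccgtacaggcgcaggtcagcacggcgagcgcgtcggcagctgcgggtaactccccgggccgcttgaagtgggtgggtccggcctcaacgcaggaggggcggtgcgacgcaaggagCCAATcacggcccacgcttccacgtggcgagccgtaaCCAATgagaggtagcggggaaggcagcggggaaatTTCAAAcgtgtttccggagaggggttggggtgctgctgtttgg
Top2a: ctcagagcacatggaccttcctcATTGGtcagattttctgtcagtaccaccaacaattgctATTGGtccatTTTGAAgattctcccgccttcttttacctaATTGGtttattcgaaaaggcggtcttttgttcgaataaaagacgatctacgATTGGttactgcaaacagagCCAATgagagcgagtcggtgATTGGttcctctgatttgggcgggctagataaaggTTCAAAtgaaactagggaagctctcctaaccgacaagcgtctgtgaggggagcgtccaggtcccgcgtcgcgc
In Ttk the CCAAT boxes began at -65 and -28 and the cell cycle element at 7, counted from the transcript start. In Top2a, TTTGAA matches began at -179 and -23 and the 6 CCAAT matches lay between -227 and -58. A match of letters is a description and not a measured binding site.

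**Figure D2:**
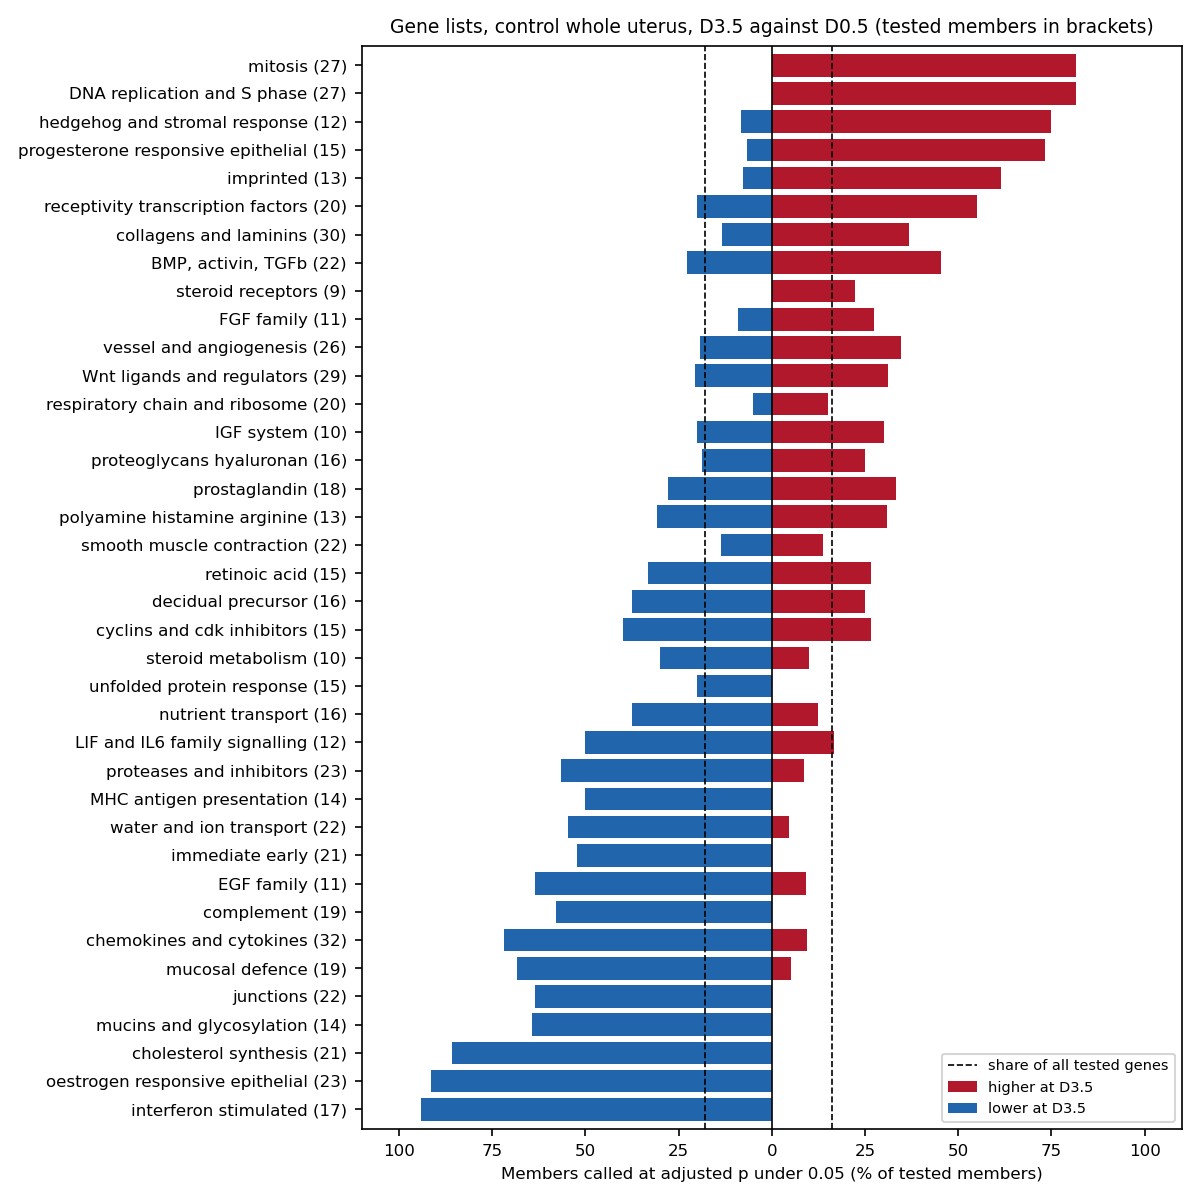
Share of tested members called higher (right) or lower (left) at D3.5 for each gene list with at least 4 tested members, marker lists left out; dashed lines are the shares over all genes tested, 16.2% higher and 18.0% lower. The mitosis and S phase lists lie at the top, and the interferon-stimulated and oestrogen-responsive lists at the bottom.

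Cholesterol synthesis genes fell together. Of 21 tested, 18 fell and none rose, with a median of -1.65, and 5 did not overlap. D0.5 mouse 1 was close to the D3.5 level in this list. The list mean of log2 CPM lay at 3.95 to 4.20 in the D3.5 uteri and at 5.40 to 6.25 in the D0.5 uteri other than mouse 1, which had 4.07. Mvd, mevalonate diphosphate decarboxylase, had 9.54, 7.21, 11.0, 12.8 and 11.0 CPM in the D3.5 uteri, against a lowest of 21.9, a median of 75.0 and a highest of 119.6 CPM in the D0.5 uteri. The lowest D0.5 value is that of mouse 1 (log2 fold change -2.86 ± 0.34, adjusted p = 1.40e-06). Hmgcs1, which makes HMG-CoA, averaged 34.6 ± 3.54 CPM at D3.5 and 104 ± 49.8 CPM at D0.5 (log2 fold change -1.59 ± 0.30, adjusted p = 3.19e-04), and Fdft1, squalene synthase, changed by -2.34 ± 0.26. Srebf2, the transcription factor of the pathway, fell too (-1.21 ± 0.22). Mvk, Pmvk and Dhcr7 did not pass, with log2 fold changes of -0.20 ± 0.28, -0.05 ± 0.26 and 0.03 ± 0.28. SREBP factors are known to act through sterol regulatory elements beside CCAAT boxes. All 12 fallen members with a promoter window held CCAAT, against 41.1% of all genes. The sterol element TCACNCCAC, added to the search after the values were seen and held by 1.44% of genes, was found in Hmgcs1 alone of the 12. Its window (chr13:119690101-119690400, plus strand, GRCm38.p6) is shown with that match in capitals, beginning at position -137 from the start.
Hmgcs1: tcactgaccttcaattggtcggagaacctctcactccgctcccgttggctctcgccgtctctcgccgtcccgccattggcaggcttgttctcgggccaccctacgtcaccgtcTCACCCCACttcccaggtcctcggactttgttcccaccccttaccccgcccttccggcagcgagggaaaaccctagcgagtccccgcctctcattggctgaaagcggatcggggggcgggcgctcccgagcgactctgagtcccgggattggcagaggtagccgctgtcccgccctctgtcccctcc
In the unfolded protein response list 3 of 15 genes fell, a share near that of all genes. These were Xbp1 (-0.71 ± 0.18), Calr (-0.57 ± 0.22) and Atf4 (-0.44 ± 0.16). None of the list fell on the TPM scale, and 1 fell without D0.5 mouse 3, 8 or 9 or without D3.5 mouse 11 or 12.

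Interferon-stimulated genes also fell nearly whole: 16 of 17 fell, all 16 without overlap, with a median of -3.27. Oas3, an enzyme that senses viral double-stranded RNA, had 4.04, 3.24, 4.57, 2.54 and 3.53 CPM in the D3.5 uteri, against a lowest of 75.9, a median of 168 and a highest of 220.4 CPM in the D0.5 uteri. Mouse 1 was the lowest D0.5 uterus and still far above every D3.5 uterus (log2 fold change -5.53 ± 0.39, adjusted p = 3.13e-09). Zbp1, a nucleic acid sensor, averaged 10.4 ± 2.01 CPM at D3.5 and 159.6 ± 50.6 CPM at D0.5 (log2 fold change -3.93 ± 0.36, adjusted p = 7.17e-08), and Oas1a 22.1 ± 5.04 CPM at D3.5 and 189.5 ± 61.7 CPM at D0.5 (log2 fold change -3.10 ± 0.29, adjusted p = 6.71e-08). Irf7, the transcription factor that amplifies the response, changed by -3.92 ± 0.43, Ifit3 by -5.05 ± 0.57 and Isg15, a ubiquitin-like modifier, by -3.93 ± 0.47. Ifi44l did not pass and had 1.99 ± 4.38 CPM at D3.5 and 0.0147 ± 0.0361 CPM at D0.5. Interferon-stimulated response elements (TTTC and TTTC with 2 bases between, either strand, added to the search after the values were seen) were found in 7 of the 11 fallen genes with a promoter window, against 3.99% of all genes. These were Ifit1, Ifit3, Isg15, Oas1a, Oas3, Rsad2 and Bst2. The windows of Oas3 (chr5:120777610-120777909, minus strand, GRCm38.p6) and Oas1a (chr5:120907476-120907775, minus strand) are shown because both genes were named by their p and hold the motif, in capitals.
Oas3: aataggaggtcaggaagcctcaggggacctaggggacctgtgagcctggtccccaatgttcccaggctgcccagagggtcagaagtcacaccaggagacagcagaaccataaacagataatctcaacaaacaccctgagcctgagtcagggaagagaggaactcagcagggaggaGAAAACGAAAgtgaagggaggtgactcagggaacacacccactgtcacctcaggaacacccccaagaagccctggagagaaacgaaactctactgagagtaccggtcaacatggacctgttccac
Oas1a: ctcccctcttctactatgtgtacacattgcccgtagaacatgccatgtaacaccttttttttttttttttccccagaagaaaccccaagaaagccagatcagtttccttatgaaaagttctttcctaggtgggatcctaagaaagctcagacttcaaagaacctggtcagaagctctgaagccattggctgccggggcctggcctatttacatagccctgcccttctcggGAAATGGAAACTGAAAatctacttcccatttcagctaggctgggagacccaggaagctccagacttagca
The match in Oas3 began at -75 from the start. Oas1a held a pair of overlapping matches that began at -20 and -14.

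Chemokines, cytokines and mucosal defence proteins were lower at D3.5. Of 32 chemokine and cytokine genes, 23 fell and 3 rose, with a median of -3.00. Cxcl5, a neutrophil attractant, had 0.172, 0.302, 1.16, 0.452 and 1.03 CPM in the D3.5 uteri, against a lowest of 26.0, a median of 213 and a highest of 498 CPM in the D0.5 uteri (log2 fold change -8.62 ± 0.76, adjusted p = 3.54e-08). Cxcl2, another neutrophil attractant, averaged 0.0524 ± 0.0891 CPM at D3.5 and 48.4 ± 31.2 CPM at D0.5 (log2 fold change -9.52 ± 0.78, adjusted p = 1.64e-08), and the mucosal chemokine Ccl28 4.03 ± 1.56 CPM at D3.5 and 153 ± 56.1 CPM at D0.5 (log2 fold change -5.25 ± 0.42, adjusted p = 1.19e-08). Ccl20 had 0 counts at D3.5 and was at least 161-fold lower. The cytokines Il1a, Il1b and Csf3 fell (-7.73 ± 0.69, -5.36 ± 0.70 and -5.96 ± 0.69). The 3 that rose were Cxcl15 (log2 fold change 2.66 ± 0.45, adjusted p = 1.00e-04), a chemokine of uterine glands, Cxcl12 (0.79 ± 0.21) and the lymphoid chemokine Ccl21a (1.60 ± 0.48). Of 19 mucosal defence genes 13 fell and 1 rose, with a median of -2.99. Lcn2, which binds bacterial siderophores, had 2.49, 2.55, 5.78, 3.90 and 7.44 CPM in the D3.5 uteri, against a lowest of 2304, a median of 7481 and a highest of 17328 CPM in the D0.5 uteri. Every D3.5 uterus was below 8 CPM (log2 fold change -10.85 ± 0.93, adjusted p = 2.63e-08). Pigr, the receptor that carries IgA into the lumen, averaged 40.8 ± 16.7 CPM at D3.5 and 2603 ± 714 CPM at D0.5 (log2 fold change -6.00 ± 0.36, adjusted p = 3.88e-10). The lysozyme gene Lyz1 was the member that rose (1.61 ± 0.31), while Lyz2 fell (-1.10 ± 0.36). Of 19 complement genes 11 fell and none rose. Cfb, factor B of the alternative pathway, averaged 34.9 ± 9.40 CPM at D3.5 and 3393 ± 1558 CPM at D0.5 (log2 fold change -6.60 ± 0.40, adjusted p = 4.04e-10), and Cfi changed by -5.29 ± 0.48. C1qa, C1qb and C1qc did not pass. Of 14 MHC and antigen presentation genes 7 fell, among them H2-K1 (-1.41 ± 0.24), H2-D1 (-1.44 ± 0.27) and Tap1 (-1.70 ± 0.27). The class I genes share reads, so each is uncertain singly, and the class II genes H2-Aa and H2-Ab1 did not pass (0.58 ± 0.30 and 0.46 ± 0.33).

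Markers of neutrophils moved with these lists. Of 12, 10 fell and 2 did not overlap, and their summed level was 62.3 to 137 CPM in the D3.5 uteri and 124 to 1144 CPM in the D0.5 uteri. S100a9, an abundant neutrophil protein, had 1.33, 0.561, 0.473, 0.960 and 0.754 CPM in the D3.5 uteri, against a lowest of 0.880, a median of 138 and a highest of 254 CPM in the D0.5 uteri. The lowest D0.5 value, inside the D3.5 range, was that of mouse 1 (log2 fold change -7.25 ± 1.03, adjusted p = 1.42e-05). The receptors Cxcr2 and Csf3r fell as well (-4.83 ± 0.65 and -3.78 ± 0.54), while Ngp, a granule protein, averaged 0.218 ± 0.197 CPM at D3.5 and 0.141 ± 0.221 CPM at D0.5. The same mouse had the lowest D0.5 list mean for chemokines and cytokines, 3.44 against 4.82 to 5.55 in the other 5, and for mucosal defence, 2.17 against 4.68 to 6.03. For interferon-stimulated genes its mean was 6.19, against 6.67 to 7.28 in the other 5 and 3.49 to 3.92 at D3.5. For the oestrogen list it was 6.52, against 7.40 to 8.33 and 0.11 to 1.01. The part of the neutrophils in these changes was not tested. No list with at least 5 called members changed its count by more than 1.5 times when any single library, mouse 1 included, was left out.

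**Figure D3:**
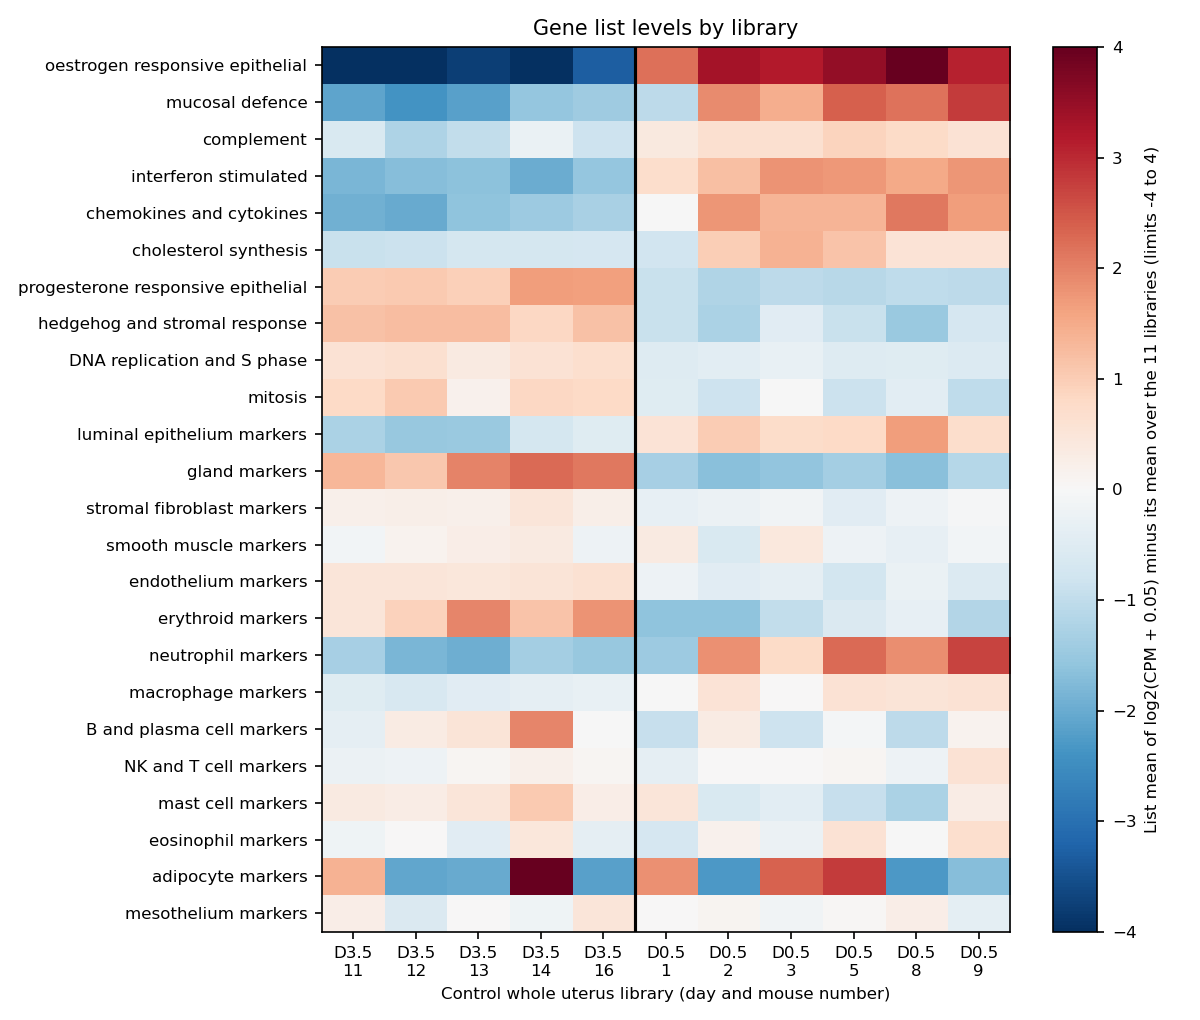
List mean of log2(CPM + 0.05) in each library minus the mean of the 11 libraries, for gene lists (top) and cell type marker lists (bottom), with D3.5 mice left of the black line and D0.5 mice right. The oestrogen, mucosal defence, interferon, chemokine and neutrophil rows are high in the D0.5 mice other than mouse 1, which is paler or below the mean in these rows, and the mitosis, S phase and erythroid rows are high in the D3.5 mice. In the mitosis row D3.5 mouse 13 is an exception and lies only slightly above the mean.

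Enzymes and transporters changed selectively. Ptgs2, the inducible prostaglandin synthase, had 0.946, 0.518, 0.893, 4.12 and 1.75 CPM in the D3.5 uteri, against a lowest of 122, a median of 424 and a highest of 1048 CPM in the D0.5 uteri. All D3.5 uteri were below 5 CPM (log2 fold change -8.12 ± 0.82, adjusted p = 2.20e-07). Ptgs1, its constitutive paralog, rose (0.57 ± 0.18), and so did the prostaglandin receptors Ptgfr (1.31 ± 0.19), Ptger2 (1.22 ± 0.28) and Ptger4 (0.62 ± 0.18). In this list of 18, 6 rose and 5 fell, or 2 fell on the TPM scale. Hsd11b2, which inactivates glucocorticoids, had 329, 337, 301, 511 and 403 CPM in the D3.5 uteri, against a lowest of 14.4, a median of 26.6 and a highest of 99.3 CPM in the D0.5 uteri, without overlap (log2 fold change 3.38 ± 0.48, adjusted p = 1.35e-05). Hsd17b11 fell (-1.33 ± 0.18). Of 15 retinoic acid genes 4 rose and 5 fell. Stra6, the retinol uptake receptor, rose (log2 fold change 2.11 ± 0.51, adjusted p = 0.00287), whereas the binding protein gene Crabp2 fell (log2 fold change -4.97 ± 0.98, adjusted p = 4.54e-04).

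Water and ion transport genes fell in 12 of 22 cases and rose in 1. Slc26a4 and Slc26a9, anion exchangers, averaged 0.964 ± 0.546 CPM at D3.5 and 150.2 ± 86.2 CPM at D0.5 (log2 fold change -7.30 ± 0.67, adjusted p = 5.86e-08), and 0.433 ± 0.358 CPM at D3.5 and 85.3 ± 41.1 CPM at D0.5 (log2 fold change -7.63 ± 0.61, adjusted p = 1.15e-08). Aqp11 was the member that rose (2.75 ± 0.36), while Aqp4 fell (-5.58 ± 0.87). Among nutrient transporters 2 of 16 rose and 6 fell. The glucose transporter Slc2a3 averaged 242 ± 82.6 CPM at D3.5 and 28.6 ± 8.56 CPM at D0.5 (log2 fold change 3.08 ± 0.26, adjusted p = 2.33e-08), and its paralog Slc2a1 21.0 ± 3.03 CPM at D3.5 and 145 ± 64.3 CPM at D0.5 (log2 fold change -2.79 ± 0.32, adjusted p = 1.04e-06), in the opposite direction. The sodium-glucose transporter Slc5a1 and the lactate exporter Slc16a3 fell (-4.76 ± 0.58 and -3.79 ± 0.36), and the arginine transporter Slc7a2 rose (1.75 ± 0.28). Arg1, arginase, had 0.946, 0.475, 0.420, 0.847 and 0.823 CPM in the D3.5 uteri, against a lowest of 206, a median of 389 and a highest of 664 CPM in the D0.5 uteri (log2 fold change -9.19 ± 0.67, adjusted p = 4.00e-09). In the same list of 13, spermidine synthase (Srm) rose (log2 fold change 1.73 ± 0.29, adjusted p = 8.89e-05), as did Hdc, which makes histamine (1.29 ± 0.29). The polyamine-breaking Sat1 and the inducible nitric oxide synthase Nos2 fell (-2.68 ± 0.21 and -5.87 ± 0.89). In all 4 of the 13 rose and 4 fell.

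Matrix genes made up 6 of the 12 largest gains in mean level. Col3a1 and Col1a1, the main fibrillar collagens, averaged 7370.2 ± 481 CPM at D3.5 and 4306 ± 996 CPM at D0.5 (log2 fold change 0.78 ± 0.22, adjusted p = 0.0102), and 5999 ± 497 CPM at D3.5 and 3911 ± 929 CPM at D0.5 (log2 fold change 0.62 ± 0.23, adjusted p = 0.0401). The call of Col1a1 was lost without any single library other than D0.5 mouse 3 or 9, and that of Col3a1 without D3.5 mouse 14 and D0.5 mice 8 and 9 together. Serpinh1, the collagen chaperone, averaged 1575 ± 195 CPM at D3.5 and 658 ± 303 CPM at D0.5 (log2 fold change 1.26 ± 0.25, adjusted p = 5.89e-04), Fbn1, the microfibril protein fibrillin, 557 ± 240.2 CPM at D3.5 and 190.1 ± 55.0 CPM at D0.5 (log2 fold change 1.55 ± 0.31, adjusted p = 5.00e-04), and the basement membrane genes Col15a1 and Nid1 changed by 1.51 ± 0.30 and 1.05 ± 0.19. Of 30 collagen, laminin and matrix genes 11 rose and 4 fell, and 7 rose without D3.5 mouse 14 and D0.5 mice 8 and 9. Lox, which crosslinks collagen, fell (log2 fold change -2.37 ± 0.27, adjusted p = 8.81e-07), and the epithelial laminin chain gene Lama5 fell (-1.75 ± 0.24). Among 23 proteases and inhibitors 2 rose and 13 fell. Mmp7, an epithelial metalloproteinase, averaged 0.162 ± 0.215 CPM at D3.5 and 139.6 ± 71.2 CPM at D0.5 (log2 fold change -9.55 ± 1.08, adjusted p = 8.88e-07), and Ctsl, cathepsin L, 233 ± 27.0 CPM at D3.5 and 1880.1 ± 725 CPM at D0.5 (log2 fold change -3.01 ± 0.22, adjusted p = 5.14e-09). Mmp2 and Adamts1 rose (0.71 ± 0.14 and 1.26 ± 0.31). Has2, which makes hyaluronan, rose (log2 fold change 3.84 ± 0.40, adjusted p = 3.04e-07), and the proteoglycan gene Dcn fell (-0.88 ± 0.14); 4 of 16 proteoglycan and hyaluronan genes rose and 3 fell. The remaining large gains were Ctsd, cathepsin D, with 2732 ± 1203 CPM at D3.5 and 1176 ± 219 CPM at D0.5 and overlapping groups (log2 fold change 1.22 ± 0.28, adjusted p = 0.00196), Mme, the peptidase neprilysin (log2 fold change 2.23 ± 0.34, adjusted p = 2.92e-05), and Jchain, the joining chain of IgA (log2 fold change 0.90 ± 0.31, adjusted p = 0.0281), which lost its call without D0.5 mouse 3, 5 or 9 or D3.5 mouse 12, 14 or 16.

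Endothelial markers rose in 9 of 12 cases with none falling. Cdh5, the endothelial cadherin, averaged 258 ± 28.1 CPM at D3.5 and 113 ± 8.18 CPM at D0.5 (log2 fold change 1.18 ± 0.12, adjusted p = 1.45e-07), and Emcn and Tie1 changed by 1.28 ± 0.14 and 1.36 ± 0.16. In the vessel list 9 of 26 rose and 5 fell, or 2 on the TPM scale. Vegfa, Adm and Edn1 fell (-1.0 ± 0.23, -2.80 ± 0.32 and -2.07 ± 0.23), Vegfa not on the TPM scale. All 5 erythroid markers rose without overlap, with a median of 2.30. Hba-a2, an alpha globin gene that shares reads with its copy, averaged 169.7 ± 68.5 CPM at D3.5 and 33.7 ± 15.9 CPM at D0.5 (log2 fold change 2.34 ± 0.36, adjusted p = 4.06e-05), and Alas2, the erythroid haem enzyme, changed by 2.27 ± 0.36. Of 12 luminal epithelium markers 8 fell and 1 rose, and their summed level was 801 to 1637 CPM at D3.5 and 4570 to 9308 CPM at D0.5. Prom1, a membrane protein of epithelial protrusions, averaged 109.5 ± 45.9 CPM at D3.5 and 1685 ± 354 CPM at D0.5 (log2 fold change -3.94 ± 0.30, adjusted p = 5.46e-09), and the keratins Krt8 and Krt18 changed by -2.66 ± 0.38 and -1.33 ± 0.24. Lpar3, a lysophosphatidic acid receptor of receptive epithelium, was the member that rose (1.48 ± 0.26), and Cldn3 did not pass (-0.29 ± 0.39). Gland markers rose in 6 of 9 cases and fell in 2, with a median of 2.66. Their summed level went the other way, with 348 to 782 CPM at D3.5 and 711 to 1917 CPM at D0.5. Ttr, which carries thyroid hormone, had 0 counts at D0.5 and 8.85 ± 5.49 CPM at D3.5 and 0 ± 0 CPM at D0.5, at least 390.2-fold higher. Prss29, a protease of glands, had 39.4 CPM in D3.5 mouse 13 and 0.129 to 4.15 CPM in the other D3.5 uteri, with 3 counts over all D0.5 uteri. Foxa2 did not pass, and Sox9 fell (-1.82 ± 0.45). Gpx3 fell too, with 41638 counts over the D3.5 uteri and 164064 over the D0.5 uteri.

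Markers of other cell types gave mixed counts. Of 11 smooth muscle markers only Synpo2 passed (log2 fold change 0.83 ± 0.31, adjusted p = 0.0464), and its call was lost without D0.5 mouse 2, 5, 8 or 9 or D3.5 mouse 11, 12 or 13. Within the contraction list of 22, 3 rose and 3 fell, and the oxytocin receptor gene Oxtr fell (log2 fold change -1.80 ± 0.29, adjusted p = 5.05e-05). Of 13 stromal fibroblast markers 7 rose and 2 fell, or 4 rose without D3.5 mouse 14 and D0.5 mice 8 and 9. Thy1 rose (1.14 ± 0.20) and Pdgfrb fell (-0.54 ± 0.13), though not on the TPM scale. Macrophage markers fell in 6 of 12 cases, or 3 without those 3 libraries and 3 on the TPM scale. Cd68 and Itgam fell (-2.44 ± 0.29 and -2.37 ± 0.27). None of 5 eosinophil markers passed, and Ccr3, the eotaxin receptor, averaged 17.9 ± 4.74 CPM at D3.5 and 30.4 ± 10.9 CPM at D0.5. Among markers of NK and T cells 1 of 15 rose, of B and plasma cells 3 of 7, of mast cells 2 of 8, and of dendritic cells 4 of 8, with 1 falling. Over 21 other settings the NK and T cell call, Klrb1c, was lost in 9, and Cpa3 and Cma1 of mast cells in 11 and 3. The calls of Jchain, Cd79a and Mzb1 of B and plasma cells were lost in 7, 2 and 1, and those of Cd209a and Clec9a of dendritic cells in 5 and 3. Mesothelial markers gave none of 6, and of 8 adipocyte markers Pnpla2 alone passed, falling (-1.31 ± 0.25). The median of the adipocyte list was 0.90, and its level was uneven within both days. The list mean of log2 CPM ran from -2.11 to 4.18 at D3.5, highest in mouse 14, and from -2.26 to 2.85 at D0.5. Markers of oviduct ciliated cells gave 3 of 6 risen and 2 fallen, of stratified epithelium 1 of 5 in each direction, of ovary 1 of 7 fallen and of nerve 1 of 8 in each direction. Over the 21 other settings Foxj1, Tekt1 and Dnah5 of ciliated cells lost the call in 9, 7 and 2, and Akr1c18 of ovary in 7. Of the nerve list, the neurotrophin receptor gene Ngfr rose (log2 fold change 3.14 ± 0.34, adjusted p = 5.05e-07). Of 12 sperm and testis markers 2 were tested, and Odf2 was called (0.34 ± 0.13) but lost the call in 16 of 21 other settings, DESeq2 among them. None of 10 seminal vesicle markers reached the level needed for a test. Of 6 embryo and trophoblast markers Elf5 (-1.46 ± 0.46) and Krt8 fell, Elf5 not without D3.5 mouse 14 and D0.5 mice 8 and 9.

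Cell contacts and surface glycans of the epithelium were lower too. Of 22 junction genes 14 fell and none rose, including Cldn7 (log2 fold change -3.05 ± 0.32, adjusted p = 3.73e-07) and the connexin gene Gjb2 (log2 fold change -5.70 ± 0.53, adjusted p = 8.11e-08), while Tjp1 did not pass (-0.16 ± 0.23). Of 14 mucin and glycosylation genes 9 fell and none rose. Muc4, a membrane mucin, had 2.84, 1.90, 8.77, 0.734 and 3.12 CPM in the D3.5 uteri, against a lowest of 1289.8, a median of 2814 and a highest of 3593 CPM in the D0.5 uteri, with no overlap (log2 fold change -9.51 ± 0.66, adjusted p = 2.24e-09), and the fucosyltransferase Fut2 changed by -2.81 ± 0.26. Of 21 immediate early genes 11 fell and none rose. Ier3 averaged 38.5 ± 14.7 CPM at D3.5 and 411 ± 163 CPM at D0.5 (log2 fold change -3.42 ± 0.46, adjusted p = 8.76e-06), Fos changed by -2.12 ± 0.43, and Egr1 did not pass, with 65.6 ± 33.3 CPM at D3.5 and 53.1 ± 19.9 CPM at D0.5. Of 13 imprinted genes 8 rose and 1 fell. Mest averaged 71.2 ± 10.4 CPM at D3.5 and 5.59 ± 3.30 CPM at D0.5 (log2 fold change 3.68 ± 0.37, adjusted p = 1.67e-07), and Peg10, the member that fell, had 9.07, 10.01, 11.1, 7.46 and 7.75 CPM in the D3.5 uteri, against a lowest of 339, a median of 542 and a highest of 2364 CPM in the D0.5 uteri (log2 fold change -6.63 ± 0.58, adjusted p = 3.51e-08). Of 16 genes used in decidualisation 4 rose and 6 fell, Dio2 (-2.63 ± 0.30) and Cebpb (-2.11 ± 0.28) among the fallen. Of 20 respiratory chain and ribosome genes 3 rose and 1 fell, or 6 rose on the TPM scale. The nucleolar genes Ncl, Fbl and Nop56 rose (0.63 ± 0.11, 0.67 ± 0.20 and 0.75 ± 0.19) and Cox5a fell (-0.94 ± 0.26). Without D3.5 mouse 14 Fbl lost its call. Plet1, a surface protein of epithelia, and Nopchap1, an assembly chaperone, were among the 12 largest losses of level, with 79.3 ± 33.8 CPM at D3.5 and 2626 ± 1161 CPM at D0.5 (log2 fold change -5.05 ± 0.38, adjusted p = 5.14e-09), and 790.2 ± 219 CPM at D3.5 and 4201 ± 1702 CPM at D0.5 (log2 fold change -2.41 ± 0.35, adjusted p = 1.69e-05).

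Pieces of the same uteri digested with dispase gave a similar count. Of 16194 genes tested in 3 D3.5 and 4 D0.5 digested pieces, 5573 (34.4%) were called, 2574 (15.9%) higher and 2999 (18.5%) lower, or 3556 higher and 2026 lower on the TPM scale. Values did not overlap in 41.7% (6754 genes, 5185 of them called), with D3.5 above in 21.0% and below in 20.7%. Groups of 3 and 4 libraries separate more easily than groups of 5 and 6, so this share cannot be compared with the 20.9% of undigested uterus. Among 16026 genes tested in both, 4476 were called in the same direction and 0 in opposite directions. They make up 81.2% of the 5515 calls in undigested and 80.5% of the 5563 in digested tissue. The pieces came from the same mice, so they are not independent of each other. Of the leading genes named above by receptor, fold or level, Esr1 alone did not pass in digested tissue, with 215 ± 11.9 CPM at D3.5 and 229 ± 39.3 CPM at D0.5 (log2 fold change -0.09 ± 0.14, adjusted p = 0.674). Lrp2 averaged 492 ± 124 CPM at D3.5 and 7.91 ± 3.68 CPM at D0.5 (log2 fold change 5.94 ± 0.35, adjusted p = 1.19e-07), Hhip 23.2 ± 9.97 CPM at D3.5 and 0.149 ± 0.181 CPM at D0.5 (log2 fold change 7.18 ± 0.65, adjusted p = 3.53e-06) and Angptl7 309 ± 105 CPM at D3.5 and 10.1 ± 5.66 CPM at D0.5 (log2 fold change 4.92 ± 0.53, adjusted p = 1.39e-05). Abcb5, a membrane transporter, was among the 8 highest there, with 11.3 ± 2.05 CPM at D3.5 and 0.346 ± 0.166 CPM at D0.5 (log2 fold change 4.97 ± 0.46, adjusted p = 1.03e-05). Clca1 changed by -13.00 ± 1.40 and Prap1 by -12.70 ± 0.97. Uox, urate oxidase, had 0 counts in the D3.5 digested pieces and was at least 1063-fold lower, and Upk3bl, a uroplakin-like gene, at least 757-fold. Of the oestrogen list 21 of 23 genes fell in digested tissue, and 22 of 27 S phase and 21 of 27 mitosis genes rose.

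The day change was next compared between whole uterus and luminal epithelium, in a joint fit of 24 control libraries with its own scaling, so that uterine CPM differ slightly from those above. Of 16103 genes tested, 3618 (22.5%) changed differently, 1257 (7.81%) with a higher and 2361 (14.7%) with a lower day change in whole uterus. The median difference over all genes was -0.14, and on the TPM scale the split was 1364 and 1354. Without the whole uterus of D0.5 mouse 9 the counts were 1479 and 1769 and the median difference -0.0026. The tissues share mice in part. Pgr averaged 137 ± 44.2 CPM at D3.5 and 49.4 ± 19.9 CPM at D0.5 in whole uterus, and 169 ± 64.0 CPM at D3.5 and 14.6 ± 7.34 CPM at D0.5 in epithelium, a larger day change in epithelium (difference -2.06 ± 0.50 on the log2 scale, adjusted p = 0.00381). Ihh averaged 45.9 ± 12.3 CPM at D3.5 and 1.15 ± 1.90 CPM at D0.5 in whole uterus, and 379.7 ± 96.6 CPM at D3.5 and 0.141 ± 0.0999 CPM at D0.5 in epithelium (difference -6.16 ± 0.90 on the log2 scale, adjusted p = 2.48e-05). Npl averaged 80.3 ± 40.3 CPM at D3.5 and 4.80 ± 2.25 CPM at D0.5 in whole uterus, and 912 ± 182 CPM at D3.5 and 0.316 ± 0.209 CPM at D0.5 in epithelium (difference -7.49 ± 0.68 on the log2 scale, adjusted p = 6.64e-08). Mme averaged 375 ± 108 CPM at D3.5 and 80.9 ± 48.6 CPM at D0.5 in whole uterus, and 3092 ± 1504 CPM at D3.5 and 2.71 ± 3.57 CPM at D0.5 in epithelium (difference -7.89 ± 0.96 on the log2 scale, adjusted p = 2.83e-06). Lrp2, Areg, Pla2g10, Rims3 and Slc5a11 also rose more in epithelium. In the progesterone list the change was lower in whole uterus for 10 of 15 genes and higher for Fst alone (4.08 ± 0.90). In the hedgehog list it was higher in whole uterus for Ptch1 and Nr2f2 (1.49 ± 0.45 and 0.93 ± 0.26).

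Other genes differed in other ways, with Wfdc3 and Aspg below 1 CPM on average in epithelium on both days. Wfdc3 averaged 14.3 ± 8.74 CPM at D3.5 and 0.471 ± 0.344 CPM at D0.5 in whole uterus, and 0.380 ± 0.610 CPM at D3.5 and 0.306 ± 0.281 CPM at D0.5 in epithelium (difference 4.59 ± 1.22 on the log2 scale, adjusted p = 0.00785). Tmprss11g, a membrane serine protease, averaged 18.6 ± 6.40 CPM at D3.5 and 20.7 ± 8.72 CPM at D0.5 in whole uterus, and 0.834 ± 0.645 CPM at D3.5 and 68.2 ± 20.9 CPM at D0.5 in epithelium (difference 6.28 ± 0.57 on the log2 scale, adjusted p = 6.44e-08). Lif averaged 27.7 ± 12.6 CPM at D3.5 and 90.4 ± 43.7 CPM at D0.5 in whole uterus, and 2.33 ± 0.901 CPM at D3.5 and 369 ± 195 CPM at D0.5 in epithelium (difference 5.62 ± 0.68 on the log2 scale, adjusted p = 2.61e-06), although its change in whole uterus alone did not pass. Aspg, an asparaginase, averaged 9.90 ± 2.66 CPM at D3.5 and 205 ± 74.1 CPM at D0.5 in whole uterus, and 0.917 ± 0.619 CPM at D3.5 and 0.126 ± 0.151 CPM at D0.5 in epithelium (difference -7.29 ± 0.70 on the log2 scale, adjusted p = 1.17e-07). Glrb, Slc26a4, Tnip3 and Cited1 had 0 counts in all D3.5 epithelium, so their fitted differences depend on the prior count of the fit. In the mitosis list the day change was higher in whole uterus for 4 of 27 genes, against 7.81% of all genes. These were Ccnb2, Kif23, Cenpe and Tpx2 (3.08 ± 1.07, 1.78 ± 0.36, 2.86 ± 1.03 and 2.33 ± 0.83). The median difference of the mitosis list was 1.83, against -0.14 over all genes. For the S phase list it was 0.60, with 2 of 27 genes higher, and no member of either list was lower. For Top2a and Mki67 the difference did not pass (-1.36 ± 0.73 and 2.17 ± 0.96), nor for Igf1 (0.19 ± 0.54) or Esr1 (0.32 ± 0.33). In the unfolded protein response list the change was higher in whole uterus for 9 of 15 genes, and so it was for 5 of 21 cholesterol genes, among them Sqle (3.62 ± 0.73). For luminal markers it was lower in whole uterus in 10 of 12 cases. Among the leading falls, Clca1, Prap1, Lcn2, Cfb, Plet1 and Nopchap1 fell further in whole uterus than in epithelium (-2.15 ± 0.54, -2.10 ± 0.66, -1.71 ± 0.61, -1.45 ± 0.49, -1.92 ± 0.45 and -1.60 ± 0.42), whereas the change of Ctsl was larger in epithelium (2.42 ± 0.50).

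**Figure D4:**
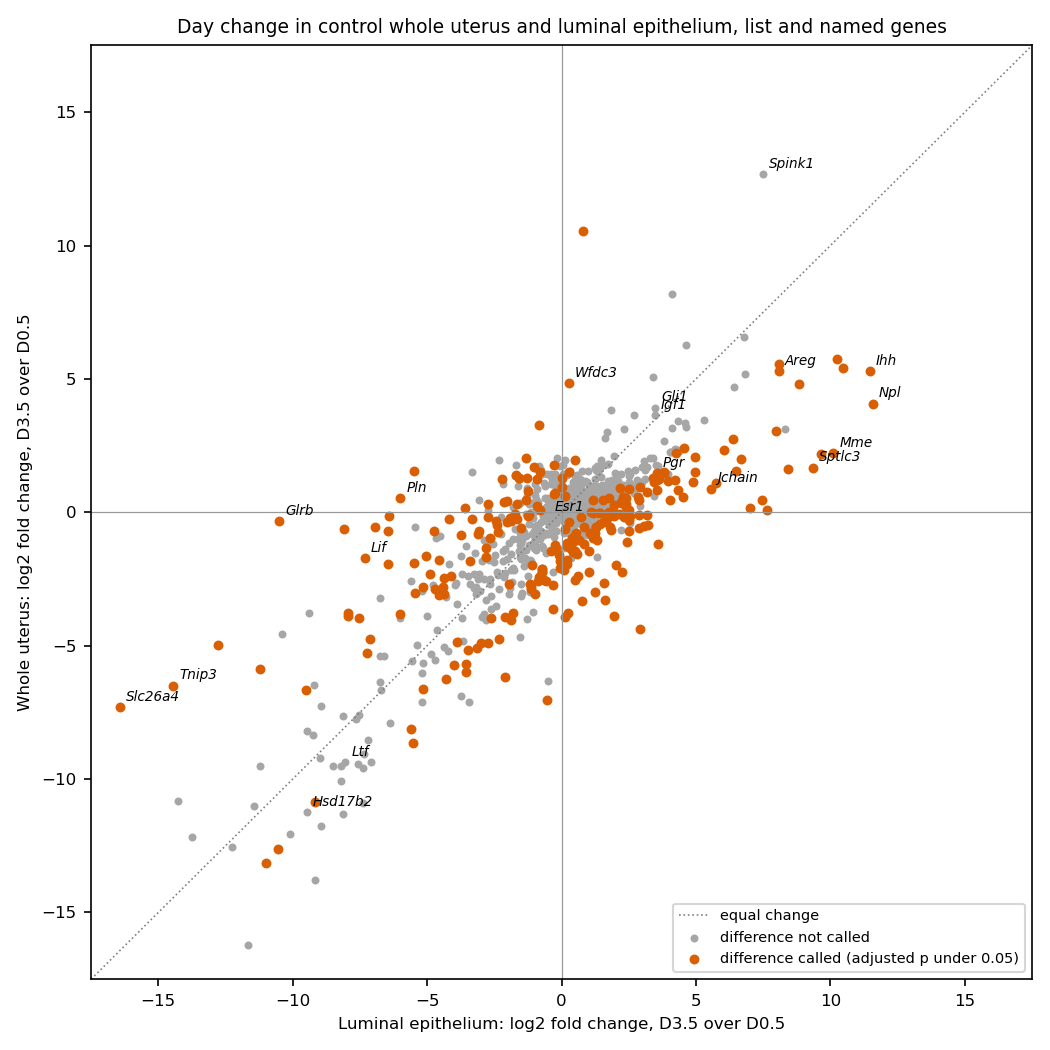
Day change (log2, D3.5 over D0.5) in control whole uterus on the vertical axis against that in control luminal epithelium on the horizontal axis, for 831 list and named genes, with the dotted line at equal change. Orange marks the 253 genes whose changes differ at an adjusted p under 0.05, Ihh, Mme and Npl among them far below the line; fitted changes of genes with 0 counts in a group depend on the prior count.

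The day change in control uteri was last set against that in uteri labelled epiERα-/-. Esr1 averaged 173 ± 23.6 CPM at D3.5 and 194 ± 62.8 CPM at D0.5 in control uteri, and 152 ± 35.2 CPM at D3.5 and 121 ± 7.17 CPM at D0.5 in knockout uteri, where the other tissues keep the gene. The library labelled knockout of D3.5 mouse 33 had 212 CPM, above all D3.5 controls. A level of whole uterus cannot show whether its epithelium lost the gene, and the label was not tested. Of 16232 genes, 232 (1.43%) changed differently, 79 (0.487%) with a higher and 153 (0.943%) with a lower change in control uteri. Without mouse 33 the counts were 114 and 180. The count of higher changes was 46 without D0.5 control mouse 5 and 47 without D3.5 control mouse 16. It was 44 to 51 without knockout D0.5 mouse 25 or 27 or knockout D3.5 mouse 32, 34, 35 or 37, and 154 without knockout D0.5 mouse 21. The count of lower changes was 93 without knockout D0.5 mouse 25 or 27. Alpl, alkaline phosphatase, averaged 4.93 ± 1.60 CPM at D3.5 and 399 ± 185 CPM at D0.5 in control uteri, and 4.79 ± 2.57 CPM at D3.5 and 1.38 ± 0.900 CPM at D0.5 in knockout uteri, so its high D0.5 level was seen in the controls (difference -8.06 ± 0.69 on the log2 scale, adjusted p = 1.58e-06). Peg10 averaged 9.08 ± 1.54 CPM at D3.5 and 899.6 ± 760.4 CPM at D0.5 in control uteri, and 15.3 ± 8.03 CPM at D3.5 and 8.58 ± 5.81 CPM at D0.5 in knockout uteri (difference -7.46 ± 0.76 on the log2 scale, adjusted p = 2.53e-05), and Arg1 0.702 ± 0.238 CPM at D3.5 and 415 ± 175 CPM at D0.5 in control uteri, and 2.60 ± 2.46 CPM at D3.5 and 11.1 ± 6.21 CPM at D0.5 in knockout uteri (difference -7.11 ± 0.79 on the log2 scale, adjusted p = 6.60e-05). Adgrg7, an adhesion receptor, and Atp2c2, a calcium pump of secretory cells, differed likewise (-5.71 ± 0.64 and -5.59 ± 0.86).

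In 6 of the 23 oestrogen-list genes the day change was lower in control uteri, and in none was it higher. Clca1 averaged 0.507 ± 0.261 CPM at D3.5 and 4523 ± 2497 CPM at D0.5 in control uteri, and 8.59 ± 10.1 CPM at D3.5 and 1679 ± 268 CPM at D0.5 in knockout uteri (difference -5.51 ± 0.90 on the log2 scale, adjusted p = 0.00464). C3 had a smaller difference, with 764 ± 269 CPM at D3.5 and 12289 ± 3443 CPM at D0.5 in control uteri, and 654 ± 128 CPM at D3.5 and 3691 ± 892 CPM at D0.5 in knockout uteri (difference -1.51 ± 0.37 on the log2 scale, adjusted p = 0.0436). Prap1 and Sprr2f differed by -5.78 ± 1.01 and -3.75 ± 0.68. The 8 highest positive differences named by rule were those of Spink1, Mmp8, Ccl3, Fpr1, Fam167a, Hp, Acod1 and Egr1. Of the 12 neutrophil markers tested here, 2 were higher, Mmp8 and Ngp (6.45 ± 1.30), and none was lower. Mmp8, a neutrophil collagenase, averaged 0.154 ± 0.134 CPM at D3.5 and 2.46 ± 1.57 CPM at D0.5 in control uteri, and 0.0436 ± 0.0974 CPM at D3.5 and 43.7 ± 25.1 CPM at D0.5 in knockout uteri (difference 5.70 ± 1.29 on the log2 scale, adjusted p = 0.0285). Acod1 averaged 48.1 ± 15.5 CPM at D3.5 and 57.9 ± 33.0 CPM at D0.5 in control uteri, and 42.3 ± 13.4 CPM at D3.5 and 470.4 ± 187 CPM at D0.5 in knockout uteri (difference 3.21 ± 0.55 on the log2 scale, adjusted p = 0.00665), and Egr1 65.6 ± 33.3 CPM at D3.5 and 53.1 ± 19.9 CPM at D0.5 in control uteri, and 34.0 ± 4.76 CPM at D3.5 and 192 ± 115 CPM at D0.5 in knockout uteri (difference 2.80 ± 0.57 on the log2 scale, adjusted p = 0.0155). Spink1 had 0 counts in the D0.5 controls and averaged 67.8 ± 39.3 CPM at D3.5 and 9.85 ± 9.95 CPM at D0.5 in knockout uteri.

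Many of the leading day changes did not differ detectably by genotype. The difference was 0.21 ± 0.46 for Pgr (adjusted p = 1.000), 1.18 ± 0.92 for Ihh (adjusted p = 0.870), 1.15 ± 0.45 for Gli1 (adjusted p = 0.303) and -0.53 ± 0.78 for Areg (adjusted p = 1.000). Igf1 averaged 681 ± 61.5 CPM at D3.5 and 56.4 ± 13.6 CPM at D0.5 in knockout uteri, with a difference of 0.08 ± 0.26 (adjusted p = 1.000). None of the 12 hedgehog, 27 S phase, 27 mitosis and 17 interferon-stimulated genes was called in this comparison. Only 1.43% of all genes were called, so a count of none in such lists is near that share. Their median differences were 0.31, 0.06, 0.40 and -1.40, against -0.004 over all genes. An unadjusted p under 0.05 was reached by 1684 of the 16232 genes tested with edgeR. With alternative tools more genes were called, 189 and 334 with DESeq2 and 390 and 639 with limma voom, which here also weighted each library by its quality.

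**Figure D5:**
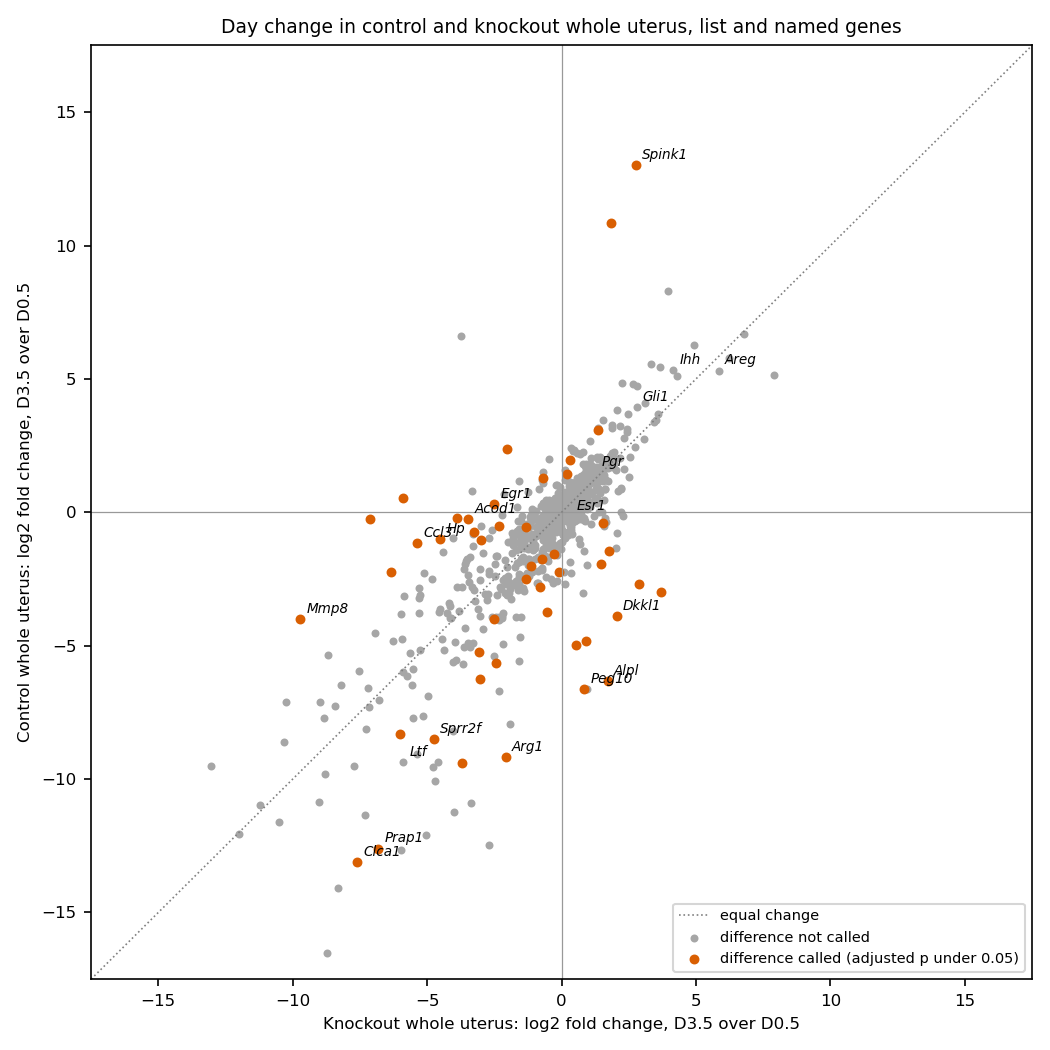
Day change (log2, D3.5 over D0.5) in control whole uterus on the vertical axis against that in whole uterus labelled knockout on the horizontal axis, for 837 list and named genes, with the dotted line at equal change. Orange marks the 47 genes whose changes differ at an adjusted p under 0.05, with Alpl, Peg10 and Arg1 far below the line and Mmp8 above it; fitted changes of genes with 0 counts in a group depend on the prior count.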

How the data were processed

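RNA-seq of 59 mouse samples was processed by the authors to 2 deposited tables over 21706 genes: estimated counts and TPM, which are scaled per transcript length. Per the submitters' processing notes, kallisto 0.46.1 and GRCm39 were used. The annotation and strand setting are not stated in the labels used here. A NEBNext Ultra kit was used, per the labels' protocols, and RNA of each tissue was extracted as 1 batch. A library of the control groups compared came from 1 mouse, and D3.5 and D0.5 share no mouse.

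The deposited estimated counts were rounded and tested in R 4.3.3 with edgeR 4.0.16 (TMM scaling, filterByExpr with a minimum count of 10 and a minimum total of 15, quasi-likelihood F test, Benjamini-Hochberg over all tested genes, threshold 0.05). The 20 whole-uterus libraries of both genotypes shared 1 fit, the 24 control uterus and epithelium libraries another, and the 13 digested libraries had their own; the coefficient of variation was 0.342, 0.402 and 0.259. Alternatives were DESeq2 1.42.0, limma 3.58.1 voom with library quality weights, and limma on log2(TPM + 1) with TPM of at least 1, which reports changes on the log2(TPM + 1) scale. The test step was checked on simulated data. No pair of replicates came near sampling noise: the lowest chi-square per degree of freedom over 25 pairs was 9.76.

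The named genes are Esr1 and Pgr, the 12 highest and 12 lowest log2 fold changes among called genes without overlap and with at least 10 CPM, the 12 largest rises and falls in mean CPM, up to 3 members per direction of each list by adjusted p, and for the other comparisons the 8 highest and lowest. Further members named are those that show a pathway's parts or did not pass, and they were chosen after their values were seen. Some named genes are not reported here. The 60 lists hold 866 genes, of which 854 were in the table and 799 were tested. Members and lists were chosen with earlier results of these data known. A level of 0 has a floor of 3 counts over the group. Promoter windows (250 bases before and 50 after the start) are RefSeq's on GRCm38.p6, matched by symbol. Same-mouse pairing was examined by the correlation of deviations from group means: over 9 mice with uterus and epithelium the median was 0.267 and the lowest -0.139, and over 7 mice with digested tissue 0.355 and 0.170. The numbers name the same mice, since they mark the animal in the labels.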

Additional observations from a re-analysis of the deposited data

Results flagged for a closer look

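Single uteri that stood apart from the rest of their group were looked for with Dixon's test at its 95% critical value, in 94 groups of values of 47 leading genes and in 116 groups of list means. It marked 12 gene values and 10 list means, and chance flags about 1 in 20 groups.

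D3.5 mouse 14 was marked in several genes and lists. Its Pgr level was 76.9 CPM, against 162 to 211 CPM in the other 4 D3.5 uteri. Its Spink1 level was 80.2 CPM (others 26.8 to 32.2) and its Areg level 24.8 CPM (others 6.93 to 9.06). Its list mean of log2 CPM was 9.07 for stromal fibroblast markers (others 8.76 to 8.82), 3.17 for mast cell markers (others 2.42 to 2.62), 5.00 for the hedgehog list (others 5.32 to 5.41) and 4.19 for the retinoic acid list (others 3.60 to 3.71). D3.5 mouse 13 had 14.3 CPM of Rims3 (others 74.1 to 97.5) and 6876 CPM of Col1a1 (others 5706 to 5921). Its list means were 3.70 for mitosis (others 4.32 to 4.57) and 0.806 for embryo and trophoblast markers (others 1.39 to 1.53). Pla2g2e at D3.5 had its only count in mouse 11, 0.0430 CPM, and Hsd17b2 in mouse 16, 0.0343 CPM, where the other 4 were at 0.

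D0.5 mouse 1 had 5.88 CPM of Ihh, against 0.207 to 0.684 CPM in the other 5 D0.5 uteri, and 0.935 CPM of Trim40 (others 8.10 to 24.2). Its list means were 3.44 for chemokines and cytokines (others 4.82 to 5.55), 2.17 for mucosal defence (others 4.68 to 6.03) and 4.80 for polyamine and arginine metabolism (others 5.60 to 5.96). D0.5 mouse 8 had 9477 CPM of Clca1 (others 3012 to 4440), mouse 3 had 1261 CPM of Serpinh1 (others 473 to 656) and mouse 2 had 0 CPM of Pla2g10 (others 0.399 to 1.10). Mouse 9 had a list mean of 4.73 for water and ion transport (others 4.93 to 5.02).

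Day changes that differed between control uteri and uteri labelled knockout, by the test of that difference, numbered 19 among the named genes. On the log2 scale, control minus knockout, the positive ones were 10.26 for Spink1, 5.70 for Mmp8, 4.23 for Ccl3, 4.12 for Fpr1, 3.67 for Fam167a, 3.50 for Hp, 3.21 for Acod1 and 2.80 for Egr1. The value of Spink1 depends on the prior count of the fit, since the D0.5 controls had 0 counts. The negative ones were -8.06 for Alpl, -7.46 for Peg10, -7.11 for Arg1, -5.93 for Dkkl1, -5.78 for Prap1, -5.71 for Adgrg7, -5.70 for Sprr2a2, -5.59 for Atp2c2, -5.51 for Clca1, -3.75 for Sprr2f and -1.51 for C3.

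Day changes that differed between whole uterus and luminal epithelium of controls numbered 34 among the named genes. The positive differences, whole uterus minus epithelium, were 10.19 for Glrb, 9.11 for Slc26a4, 7.97 for Tnip3, 7.81 for Cited1, 7.05 for Artn, 6.54 for Pln, 6.40 for Rap1gap2, 6.28 for Tmprss11g, 4.59 for Wfdc3 and 2.42 for Ctsl. Glrb, Slc26a4, Tnip3 and Cited1 had 0 counts in D3.5 epithelium, so their values depend on the prior count. Differences between -7.89 and -5 were -7.89 for Mme, -7.68 for Sptlc3, -7.54 for Tm4sf4, -7.49 for Npl, -7.47 for Col28a1, -7.29 for Aspg, -7.01 for Trem2, -6.84 for Tmod1, -6.16 for Ihh and -5.04 for Pla2g10. The rest were -4.66 for Jchain, -4.49 for Rims3, -4.04 for Slc5a11, -3.45 for Col15a1, -3.03 for Ctsd, -2.79 for Areg, -2.56 for Lrp2, -2.15 for Clca1, -2.10 for Prap1, -2.06 for Pgr, -1.92 for Plet1, -1.71 for Lcn2, -1.60 for Nopchap1 and -1.45 for Cfb.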

How the results depend on the processing

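Between days in control whole uterus, requiring 2-fold left 1150 genes higher and 1805 lower, and in digested uterus 1068 and 1756. Leaving out each library gave 2152 to 2594 higher and 2660 to 2992 lower genes in whole uterus, and 1935 to 2651 and 2340 to 3121 in digested uterus. Chosen after seeing the data, leaving out D3.5 mouse 14 and D0.5 mice 8 and 9 gave 2367 and 2710, and these 3 libraries as a covariate 3602 and 3642. For control minus knockout, DESeq2 called 189 higher and 334 lower differences, limma voom 390 and 639, and leaving out each library gave 44 to 154 and 93 to 216. For whole uterus minus epithelium, leaving out each library gave 1068 to 1479 and 1769 to 2555, no filter on low counts 1703 and 1693, and TPM scaling 1354 lower. With the mouse as a replicate block, the counts were 958 higher and 1745 lower, and the same mice without the block gave 654 and 1300. Calls of single genes were not compared with and without the block. No paired analysis was possible because D3.5 and D0.5 uteri, control or knockout, come from different mice and share no numbers. The causes of these shifts were not tested. For the 236 named genes, 4744 of 4935 values under 21 settings kept their direction and side of the threshold, 188 lost the call and 3 reversed. The reversals were Esr1, which did not pass in any, at 0.042, 0.046 and 0.042 on TPM scales. Of these genes 34 lost a call somewhere. Depth limits the genes at 0 counts to bounds.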
